A study of Mus musculus with 12 samples.

Results

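The primary cilium was followed through 43 genes of its transport and gate machinery, in RNA from mouse palatal shelves, the outgrowths of the upper jaw that meet to form the roof of the mouth. The genes were taken by name from a fixed list, which uses no measured value as a threshold. They comprised 10 subunits of the IFT-B complex, 4 subunits of the IFT-A complex with their adaptor Tulp3, 3 motor subunits, 8 subunits or chaperonins of the BBSome, 12 transition zone proteins and 5 ciliary proteins of the Hedgehog pathway. All 43 were present among the 24391 gene symbols counted, and all 43 passed the filter on low counts that left 15958 genes for testing.

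Embryos were C57BL/6 at E13.5, the stage before the shelves rise and fuse. One set came from mice treated with tamoxifen, a selective oestrogen receptor modulator, and the other from controls. Each shelf was divided into an anterior and a posterior portion, which gave 4 groups of 3 total RNA libraries. The labels used here state neither the dose, timing and route of tamoxifen nor what the controls received, and do not say whether the libraries of a group came from separate litters.

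A primary cilium is a single microtubule-based antenna that projects from most vertebrate cells. It is built by intraflagellar transport (IFT): IFT-B trains drawn by kinesin-2 carry cargo to the tip, IFT-A trains drawn by dynein-2 bring it back, the transition zone gates the base, and the BBSome removes membrane proteins. Vertebrate Hedgehog signalling runs through this organelle, where the receptor Ptch1 gives way to Smo and the Gli factors are processed, and ciliary gene defects in mice and humans often include clefts of the palate.

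Library depth lay between 39.4 and 50.2 M counts except in anterior tamoxifen 1, which had 73.0 M. The lowest count of any ciliary gene in any library was 152. Of the counts from 1 to 100, 57.1% to 60.1% were even, so mates of a pair may have been counted separately and counts may overstate the number of fragments. The 12 palatal mesenchyme markers were all detected, with summed levels of 8919.6 to 17707 CPM (counts divided by the TMM-scaled library total in M) over the libraries. The 13 epithelial markers summed to 1219 to 1472 CPM in anterior controls, 1361 to 1652 CPM in anterior tamoxifen libraries, 754 to 825 CPM in posterior controls and 844 to 1108 CPM in posterior tamoxifen libraries. Muscle markers summed to 13.2 to 20.1 CPM in anterior controls and 9.52 to 19.1 CPM in anterior tamoxifen libraries. In the posterior portion their range was 355 to 411 CPM in controls and 409 to 566 CPM under tamoxifen. Cartilage markers summed to 504 to 565 CPM in anterior controls and 418 to 514 CPM in anterior tamoxifen libraries. Posteriorly they summed to 2088 to 2296 CPM in controls and 1492 to 2135 CPM under tamoxifen. The summed endothelial markers were at 412 to 447 CPM against 346 to 379 CPM anteriorly and 471 to 494 CPM against 378 to 410 CPM posteriorly, tamoxifen first. Of the 6, 4 were called higher and 1 (Esam) lower anteriorly, and 4 higher and 0 lower posteriorly. The summed neuronal markers were at 109 to 132 CPM against 87.8 to 109 CPM and at 148 to 199 CPM against 125 to 137 CPM. Of these 8, 4 were called higher anteriorly and 3 posteriorly, and 0 lower. Epithelial markers gave 5 higher and 1 lower of 13 anteriorly, and 6 and 0 posteriorly. For macrophage markers it was 3 and 1 of 6, and 2 and 0. Muscle markers gave 1 higher and 5 lower of 9 anteriorly, and 2 and 0 posteriorly. For palatal mesenchyme markers it was 3 and 4 of 12, and 2 and 2. Cartilage markers gave 2 and 1 of 7, and 1 and 0. All tested genes stood at 25.6% higher and 24.0% lower anteriorly, and 17.3% and 11.7% posteriorly. The part of these shifts in the results below was not tested. In such bulk tissue, fewer cells of a type and less RNA per cell cannot be told apart.

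The most negative of the 43 changes under tamoxifen in the anterior palate were those of the B9-domain genes, so their promoters are shown first. B9d1, B9d2 and Mks1 encode the 3 B9-domain proteins of the transition zone, which sit together in the Meckel syndrome protein module. Many ciliary genes carry an X-box, the binding motif of RFX transcription factors, near their start. In the RefSeq promoters of GRCm38.p6, which run from 250 bases before to 50 bases after the annotated start, the X-box was searched on both strands as GTTNCC, any 3 bases, then GNAAC, and more loosely with GTNNCC in place of GTTNCC. N is any base. The 3 promoters follow in lower case, with each match in capitals.
B9d1 (chr11:61504894-61505193, plus strand): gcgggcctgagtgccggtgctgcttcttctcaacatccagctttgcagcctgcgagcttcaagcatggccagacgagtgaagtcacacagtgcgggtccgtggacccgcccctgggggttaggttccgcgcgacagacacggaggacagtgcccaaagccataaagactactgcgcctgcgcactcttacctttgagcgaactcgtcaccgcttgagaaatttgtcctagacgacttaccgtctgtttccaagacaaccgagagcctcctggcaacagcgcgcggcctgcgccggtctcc
B9d2 (chr7:25680530-25680829, plus strand): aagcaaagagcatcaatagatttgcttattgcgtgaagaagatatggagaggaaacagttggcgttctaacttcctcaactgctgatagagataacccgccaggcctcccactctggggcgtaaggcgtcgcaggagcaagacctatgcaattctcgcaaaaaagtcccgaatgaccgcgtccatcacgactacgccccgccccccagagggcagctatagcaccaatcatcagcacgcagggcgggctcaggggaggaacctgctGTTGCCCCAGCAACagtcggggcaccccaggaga
Mks1 (chr11:87852965-87853264, plus strand): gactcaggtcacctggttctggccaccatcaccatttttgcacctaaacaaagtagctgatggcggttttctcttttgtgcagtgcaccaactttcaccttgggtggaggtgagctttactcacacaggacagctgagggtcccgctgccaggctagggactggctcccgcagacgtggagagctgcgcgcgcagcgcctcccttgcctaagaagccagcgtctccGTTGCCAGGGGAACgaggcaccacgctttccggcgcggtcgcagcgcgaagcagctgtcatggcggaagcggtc

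B9d2 held a match 16 to 29 bases after its start (counted with the start as 0), and Mks1 held one 24 to 11 bases before it. The B9d1 window held neither spelling. B9d2 has another annotated start, whose window also had no match. The gene bodies lie on chr11:61505144-61512931 (B9d1), chr7:25680780-25686558 (B9d2) and chr11:87853215-87863803 (Mks1) of GRCm38.

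Of the 39 ciliary genes with a promoter in that table, 4 held the stricter spelling (10.3%), against 0.936% of all 27025 genes. The looser spelling, which includes the stricter, was in 10 of 39 (25.6%), against 2.49% of all genes. A further list of 49 ciliary genes, 42 of them in the table, stood between these at 7.14% and 19.0%. Ift80, Ift81, Ift122 and Tmem67 were not in the table. Besides B9d2 and Mks1, the matches were in the genes below, with 10 bases on each side where the window allowed. Tctn1 and Bbs7 held the stricter spelling and the others the looser one only. Each sequence is printed on the strand of its gene. For Tctn2, Bbs1, Ift57 and Tmem216 the match was on the opposite strand, so the reverse complement of the capitals has the spelling. The coordinates are those of the 300-base window.
Tctn1 (chr5:122264411-122264710, minus strand): ggctgtgactGTTGCCCGGGCAAC
Bbs7 (chr3:36613340-36613639, minus strand): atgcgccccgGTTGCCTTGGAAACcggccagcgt
Tctn2 (chr5:124598499-124598798, plus strand): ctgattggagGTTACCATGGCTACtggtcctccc
Nphp4 (chr4:152477892-152478191, plus strand): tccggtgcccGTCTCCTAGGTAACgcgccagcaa
Bbs1 (chr19:4906578-4906877, minus strand): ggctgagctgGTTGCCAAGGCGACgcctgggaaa
Bbs4 (chr9:59353459-59353758, minus strand): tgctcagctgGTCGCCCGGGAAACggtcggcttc
Ift57 (chr16:49699044-49699343, plus strand): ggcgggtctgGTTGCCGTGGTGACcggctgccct
Tmem216 (chr19:10555714-10556013, minus strand): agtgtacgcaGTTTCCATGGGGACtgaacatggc

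Promoters of the ciliary genes had a median GC content of 60.3%, against 52.7% for all promoters in the table. A match describes letters in a window and not binding by any factor.

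Ciliary transcripts were present at moderate levels in every group. To compare genes, CPM was divided by the length of the longest annotated transcript in kilobases. The median over the 43 genes was 7.24 CPM per kb, against 6.46 for all tested genes with a known length. Ift20, an IFT-B subunit that also sits on the Golgi, was the highest at 39.3 CPM per kb on average. It measured 44.0 ± 2.2 (SD, n = 3) in anterior controls, 34.7 ± 1.2 in anterior tamoxifen libraries, 42.1 ± 0.66 in posterior controls and 36.3 ± 1.5 in posterior tamoxifen libraries. Tulp3, which links IFT-A to membrane receptors, followed at 27.9, then the kinesin-2 subunit Kif3a at 24.3 and B9d1 at 23.4 CPM per kb.

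The lowest levels per kb belonged to Bbs10, a BBSome chaperonin (1.59), to Cep290, a large scaffold that links the transition zone membrane to the microtubules (1.69), to the dynein-2 heavy chain Dync2h1 (2.26) and to the membrane protein Tmem67 (2.82). Cep290 measured 1.11 ± 0.30 CPM per kb in anterior controls, 2.45 ± 0.29 in anterior tamoxifen libraries, 1.31 ± 0.28 in posterior controls and 1.90 ± 0.15 in posterior tamoxifen libraries (SD, n = 3). The ratio of the highest to the lowest group mean had a median of 1.27 over the ciliary genes and was under 1.5 for 35 of 43. It was smallest for Tulp3 at 1.03 and largest for Cep290 at 2.21. The ratio is not given for all genes, so these values are not read as particular to ciliary genes.

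**Figure D1:**
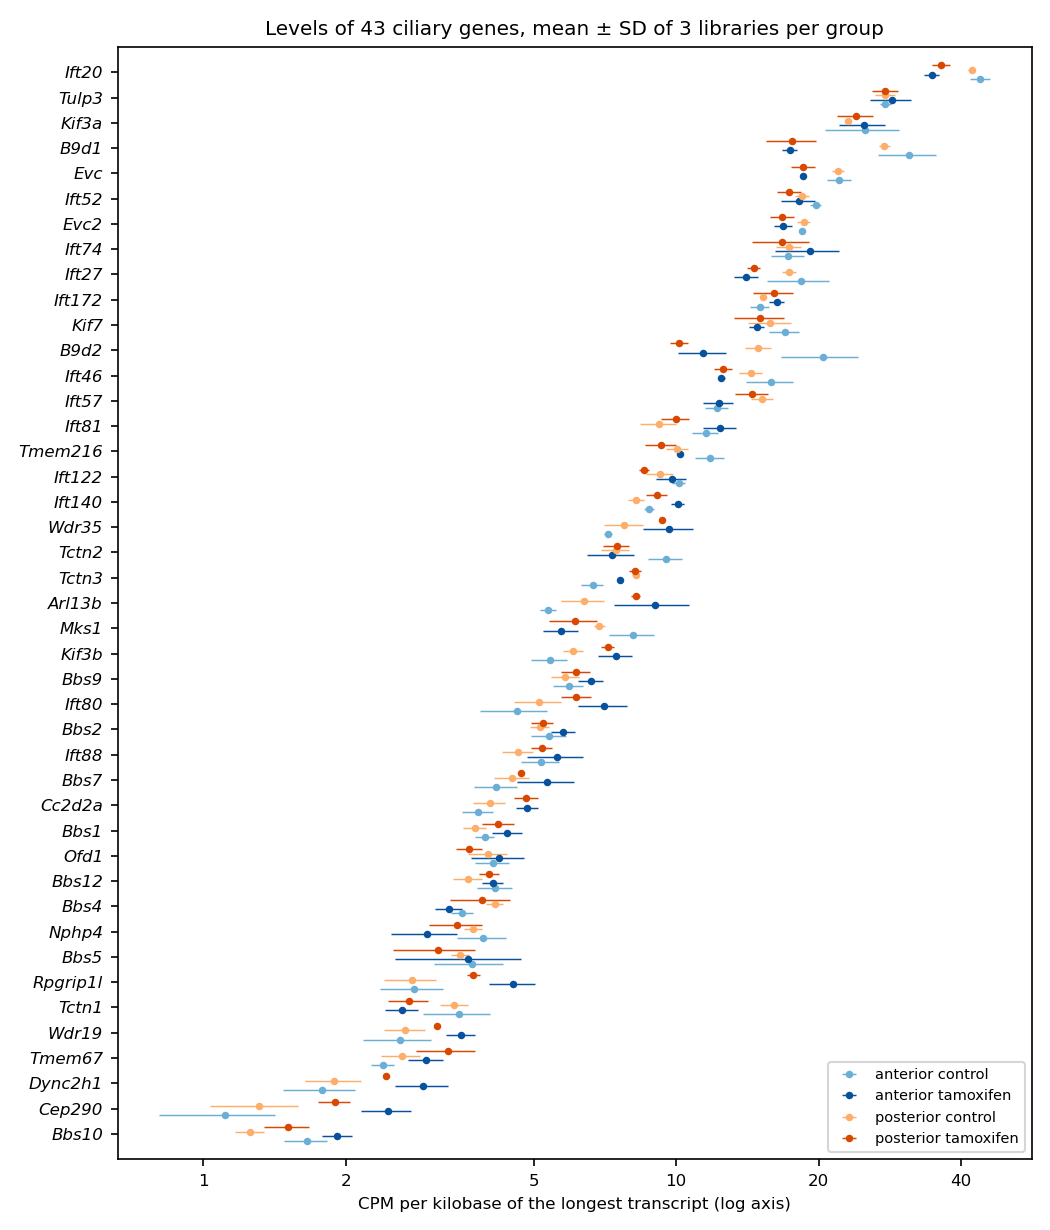
Level of each of the 43 ciliary genes in CPM per kilobase of the longest transcript (log axis), with 1 point and SD bar (n = 3) for each of the 4 groups, genes ordered by their mean over the 12 libraries. Ift20 is at the top with a mean of 39.3 and Bbs10 at the bottom with 1.59, and for most genes the 4 points lie close together.

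The tamoxifen comparison of the anterior palate asked how ciliary transcripts differed between treated and control shelves. Ciliary genes moved in both directions: 11 of 43 were called higher and 10 lower under tamoxifen, and 22 were not called. A gene is called at an adjusted p under 0.05 (edgeR quasi-likelihood test, Benjamini-Hochberg over all 15958 genes). The same rule called 25.6% of all tested genes higher and 24.0% lower, 49.7% in all, so the ciliary counts lie near this background. The median log2 fold change of the 43 was 0.04, against -0.02 for all genes. Values of the 3 treated and 3 control libraries did not overlap for 15 ciliary genes that were higher and 13 that were lower, against 28.7% and 27.8% of all genes, 56.5% in all. Anterior tamoxifen 2 was the highest library of its group for 28 of the 43 genes. Leaving out each library in turn gave 10 to 12 ciliary genes higher and 9 to 10 lower. Over all genes it gave 3518 to 4181 higher and 3035 to 3780 lower.

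The transition zone held most of the falls, with 6 of its 12 genes called lower and 3 higher. B9d1 measured 26.2, 24.7 and 32.0 CPM in the anterior controls and 15.1, 15.2 and 16.1 CPM in the tamoxifen libraries. Every tamoxifen library was thus below every control, and the log2 fold change was -0.84 ± 0.11 (SE), or 1.79-fold lower (edgeR adjusted p = 1.66e-05). B9d2 went from 19.7, 17.7 and 25.1 CPM to 11.8, 10.3 and 12.95 CPM, again without overlap, also 1.79-fold lower (-0.84 ± 0.13, edgeR adjusted p = 6.48e-05). Mks1 measured 18.0, 20.4 and 22.3 CPM in controls and 15.2, 12.9 and 14.8 CPM under tamoxifen, a log2 fold change of -0.50 ± 0.11 (edgeR adjusted p = 0.00139). These B9-domain genes had the 3 most negative log2 fold changes of all 43.

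The other 3 called transition zone genes with lower levels were Tctn1, Nphp4 and Tctn2. Tctn1, a tectonic protein of the same module, measured 23.6, 18.4 and 17.7 CPM in controls and 16.4, 14.2 and 14.6 CPM under tamoxifen (-0.40 ± 0.12, edgeR adjusted p = 0.0106). The groups did not overlap, but without anterior control 1 the adjusted p was 0.0941 and the value -0.25. Exons of Tctn1 share 19.0% of their bases with Hvcn1 on the opposite strand, and the strand setting of the counting is not given in the sources used here. Hvcn1 itself averaged 8.83 CPM in controls and 9.48 CPM under tamoxifen, with no call. Nphp4, a nephrocystin, measured 17.2, 19.9 and 21.8 CPM in controls and 15.9, 12.2 and 16.7 CPM under tamoxifen (-0.39 ± 0.13, edgeR adjusted p = 0.0180). Its call was lost without anterior control 2 (adjusted p 0.0524), without anterior control 3 (0.0918) or without anterior tamoxifen 2 (0.0808).

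The rises in the transition zone were of Cep290, Rpgrip1l and Cc2d2a. Cep290 measured 11.8, 8.61 and 6.93 CPM in anterior controls and 19.8, 22.7 and 17.9 CPM in anterior tamoxifen libraries. It was 2.21-fold higher without overlap, the largest change of the 43 genes (log2 fold change 1.14 ± 0.18, edgeR adjusted p = 9.19e-05). Cep290 shares 7.58% of its exon bases with 4930430F08Rik, which averaged 4.53 CPM in controls and 5.75 CPM under tamoxifen and was not called. Rpgrip1l, a scaffold at the base of the zone, measured 22.0, 20.4 and 16.2 CPM in controls and 28.6, 35.5 and 30.9 CPM under tamoxifen (0.70 ± 0.12, edgeR adjusted p = 0.000202). Genes of a shared compartment thus moved in opposite directions in the same libraries.

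**Figure D2:**
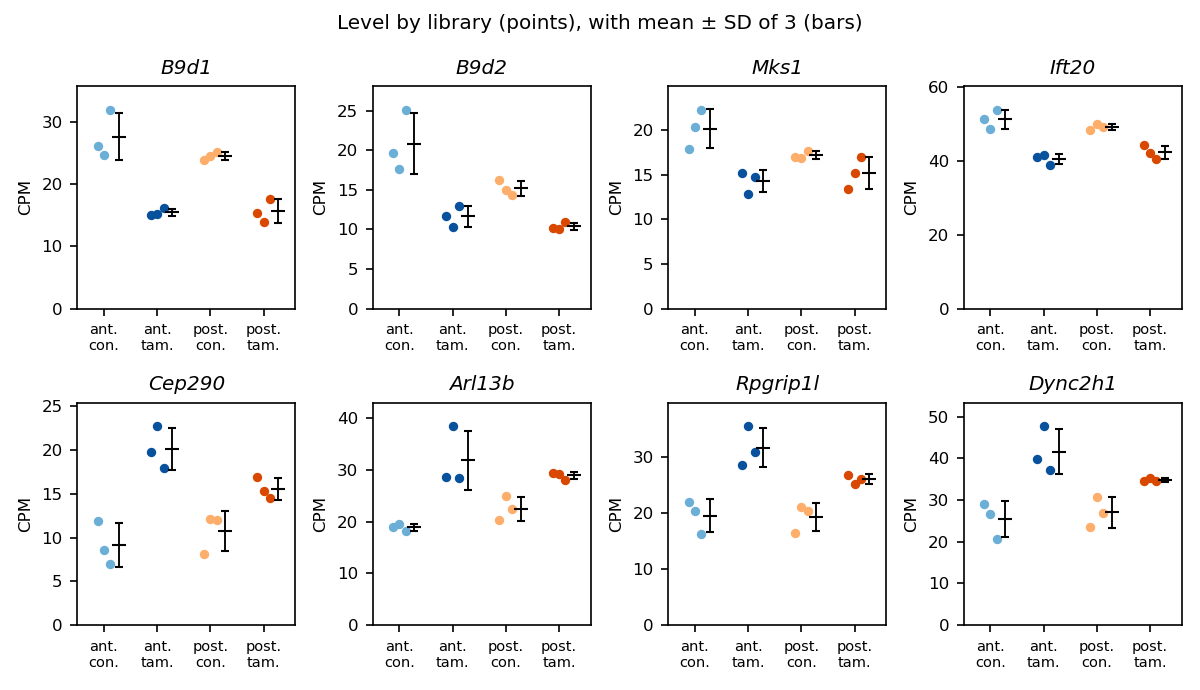
Level in CPM (axes from 0) of B9d1, B9d2, Mks1, Ift20, Cep290, Arl13b, Rpgrip1l and Dync2h1 in each of the 12 libraries (coloured points), with the mean and SD of each group of 3 beside them; ant. and post. are anterior and posterior, con. and tam. control and tamoxifen. In the anterior palate the upper 4 genes are lower in every tamoxifen library than in any control, and the lower 4 are higher.

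Arl13b, a small GTPase of the ciliary membrane that is needed for normal Hedgehog output, was the strongest riser outside the transition zone. It measured 19.0, 19.6 and 18.2 CPM in anterior controls, against 28.7, 38.5 and 28.4 CPM under tamoxifen, 1.68-fold higher (0.75 ± 0.11, edgeR adjusted p = 6.03e-05). Among the other Hedgehog-linked ciliary genes, Evc, part of the complex that relays the Smo signal at the base of the cilium, fell slightly (-0.25 ± 0.07, edgeR adjusted p = 0.00584). Its partner Evc2 (-0.13), the kinesin Kif7 (-0.19) and Ofd1 (0.04) were not called.

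Of the 3 motor subunits, 2 were called higher. The dynein-2 heavy chain Dync2h1 measured 29.1, 26.6 and 20.6 CPM in controls and 39.9, 47.7 and 37.3 CPM under tamoxifen (0.71 ± 0.13, edgeR adjusted p = 0.000242). The kinesin-2 subunit Kif3b measured 31.1, 32.8 and 27.5 CPM in controls and 40.3, 46.0 and 39.7 CPM under tamoxifen (0.46 ± 0.09, edgeR adjusted p = 0.000320). Neither overlapped between the groups. Kif3a, the partner of Kif3b in the same motor, was not called (-0.01 ± 0.11).

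Within the IFT-B complex 1 of 10 genes was called higher and 3 lower. Ift80 measured 39.5, 36.9 and 28.6 CPM in controls and 50.2, 60.9 and 49.5 CPM under tamoxifen (0.61 ± 0.12, edgeR adjusted p = 0.000521). Ift27, a small GTPase that helps the BBSome leave the cilium, measured 25.4, 27.3 and 33.6 CPM in controls and 23.5, 21.4 and 21.3 CPM under tamoxifen (-0.38 ± 0.10, edgeR adjusted p = 0.00420). Ift20 (-0.34) and Ift46 (-0.35) also fell. The other IFT-B subunits Ift88 (0.11), Ift52 (-0.12), Ift172 (0.12), Ift57 (0.01), Ift74 (0.15) and Ift81 (0.10) were not called.

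In the IFT-A complex with Tulp3, 3 of 5 genes were called higher and none lower: Wdr19 (0.43), Wdr35 (0.43) and Ift140 (0.20). Ift140 lost its call without anterior control 2 (adjusted p 0.0523). In the BBSome 1 of 8 genes was called, Bbs7, at 0.36 ± 0.12 (edgeR adjusted p = 0.0206). That call was lost without anterior control 1, anterior control 3 or anterior tamoxifen 2, with adjusted p-values of 0.0512, 0.0833 and 0.0971. The remaining BBSome genes lay between -0.09 (Bbs4) and 0.22 (Bbs10).

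**Figure D3:**
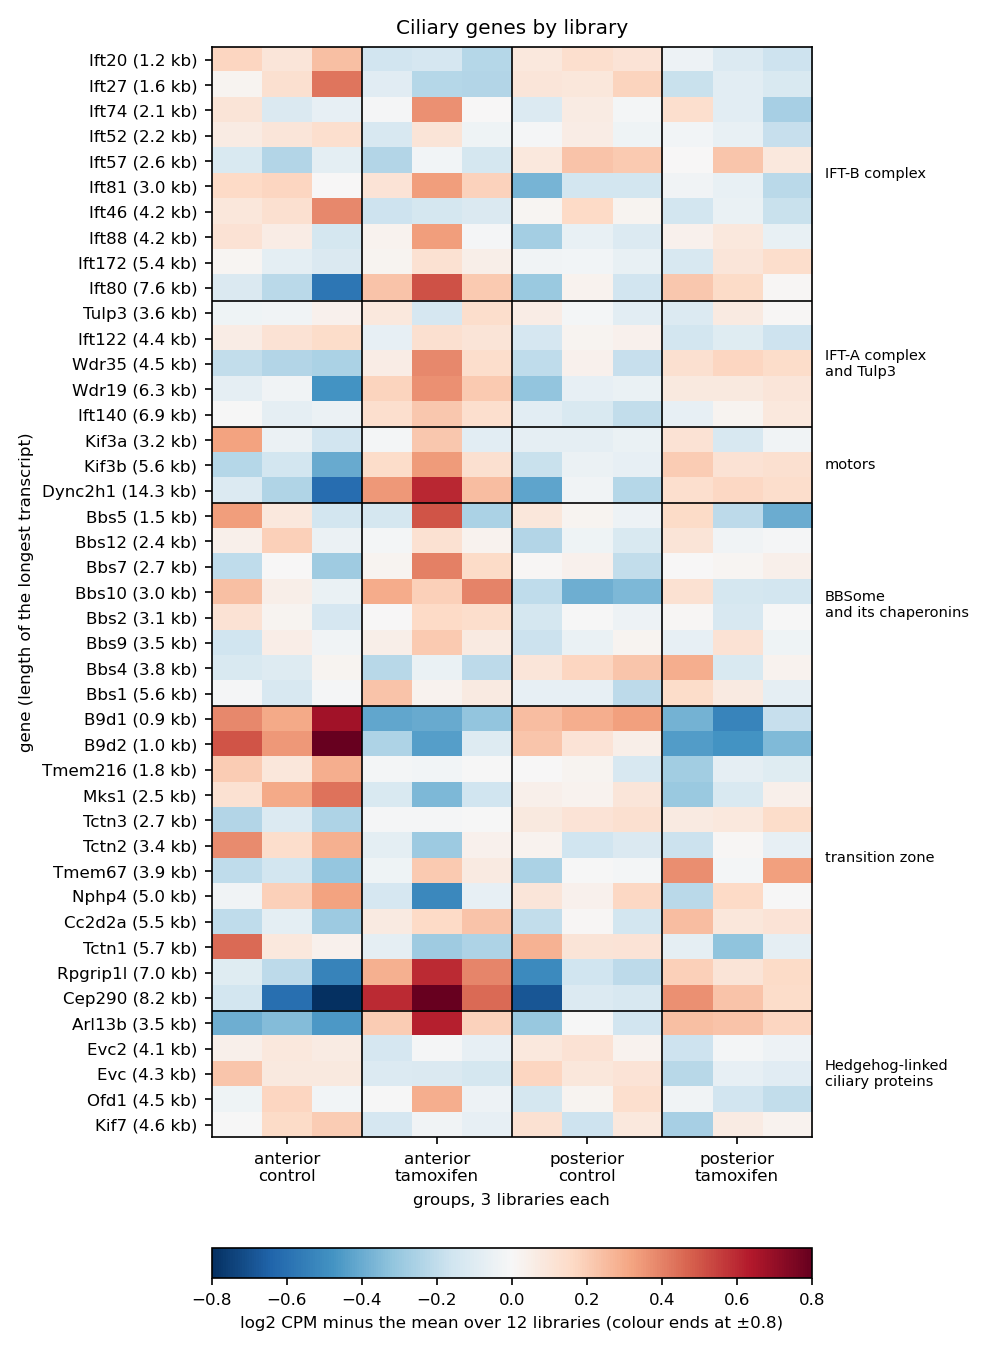
Log2 CPM of each ciliary gene minus its mean over the 12 libraries (colour scale ending at ±0.8), with genes grouped by complex and ordered within it by the length of the longest transcript, and libraries in columns. In the transition zone block, B9d1 and B9d2 at the top are red in anterior controls and blue in tamoxifen libraries, and Rpgrip1l and Cep290 at the bottom are the reverse.

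The direction of a ciliary gene followed the length and base composition of its transcript. Across the 43 genes, Spearman's rho of the anterior log2 fold change was 0.53 with transcript length and -0.57 with GC content, while over 15844 tested genes with these values it was 0.54 and -0.52. These correlations are across genes of the same libraries, which are not independent replicates. Of the 10 ciliary genes under 2.5 kb, none was called higher and 5 lower, and of all genes this short 3.52% were called higher and 40.9% lower. Of the 12 ciliary genes of 5 kb or more, 8 were called higher and 2 lower (Tctn1 and Nphp4), beside 62.1% and 5.49% of all genes this long. B9d1 and B9d2 have the shortest transcripts of the 43, at 0.890 and 1.02 kb, and Dync2h1 has the longest, at 14.3 kb.

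By library, the rho between length and each library's deviation of the 43 genes from their mean over libraries was -0.50 to -0.44 in anterior controls and 0.38 to 0.57 in anterior tamoxifen libraries. It was -0.44 to -0.36 in posterior controls and 0.34 to 0.56 in posterior tamoxifen libraries. Since the deviations are from the mean over the same 12 libraries, the signs of control and tamoxifen libraries are tied, and these values restate the relation of the fold changes. The cause of this relation was not tested.

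**Figure D4:**
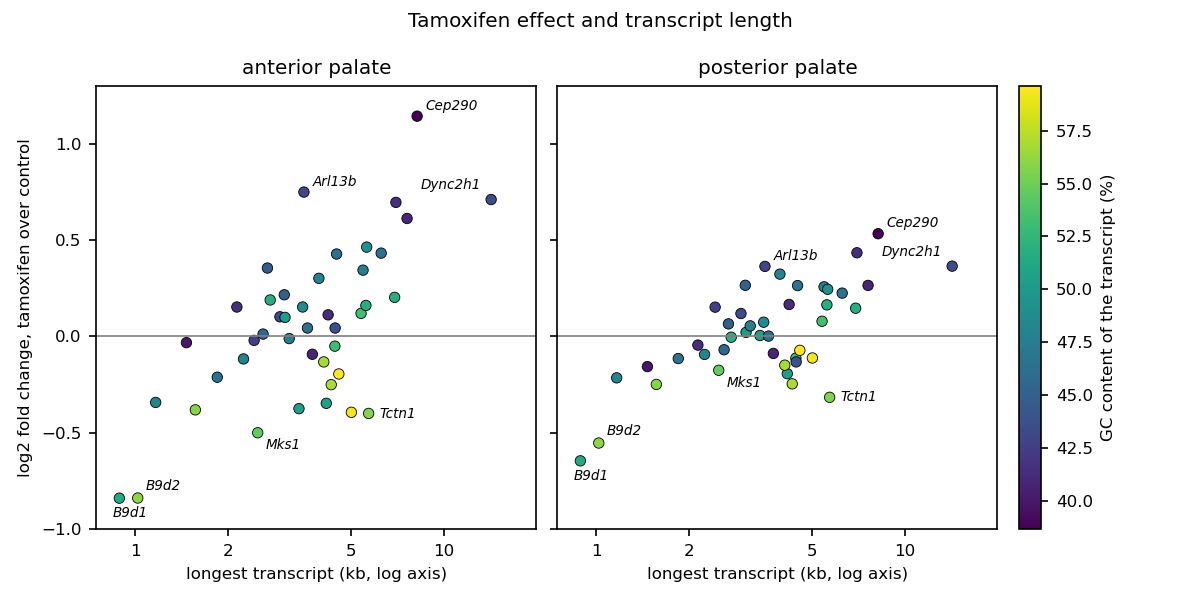
Log2 fold change of the 43 ciliary genes under tamoxifen against the length of the longest transcript (log axis, kb), anterior at left and posterior at right, coloured by the GC content of the transcript. B9d1 and B9d2 lie lowest at the short end, Cep290 and Dync2h1 high at the long end, and Tctn1 lies below other genes of its length.

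With a trend over length and GC content estimated from all genes and removed from each library, 3 ciliary genes were called higher and 10 lower in the anterior palate, against 16.1% and 16.6% of all genes, 32.7% in all. Of the 21 original calls, 9 were kept in the same direction, 12 were lost and none became a call in the opposite direction. The calls for Arl13b (0.52 ± 0.08, edgeR adjusted p = 0.000181) and Cep290 (0.42 ± 0.13, 0.0184) remained, and Tctn3 joined them (0.35, 0.00163). B9d1 remained lower at -0.51 ± 0.09 (edgeR adjusted p = 0.000431) and B9d2 at -0.31 ± 0.10 (0.0189), whereas Mks1 was no longer called (-0.20, 0.0924). Tctn1 (-0.48), Ift46 (-0.45), Tctn2 (-0.36), Nphp4 (-0.25) and Ift20 (-0.20) also remained lower. Hvcn1, whose exons overlap those of Tctn1, was called higher in this fit (0.39 ± 0.11, edgeR adjusted p = 0.0140).

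The 12 lost calls were 9 rises and 3 falls. Dync2h1 moved from 0.71 to -0.09, Rpgrip1l from 0.70 to 0.04, Ift80 from 0.61 to -0.08, Kif3b from 0.46 to 0.10 and Wdr19 from 0.43 to -0.07. Wdr35, Ift140, Cc2d2a and Bbs7 were the other rises no longer called, and Ift27, Evc and Mks1 the falls. New calls were Bbs4 (-0.38), Ofd1 (-0.32) and Ift88 (-0.24), all lower, besides Tctn3. Ift88 and Ofd1 had been slightly positive before the removal. Bbs4 shares 3.21% of its exon bases with Adpgk on the opposite strand, which was also called lower after the removal (-0.31 ± 0.06, edgeR adjusted p = 0.00134).

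Calls were also set beside the promoter matches. In the anterior palate, 5 of the 10 ciliary genes with the looser X-box were called lower and 1 higher, and of the 29 without a match 5 were called lower and 9 higher. Among all tested genes in the promoter table, 27.2% of the 372 with a match were called lower and 23.9% higher, and of those without 24.4% lower and 26.1% higher. With the trend removed, the 10 genes with a match gave 5 lower and 0 higher calls, against 19.1% and 11.8% of the 372. The 29 without a match then gave 5 lower and 3 higher, beside 16.8% and 16.1% of all genes without one. In the posterior palate 1 of the 10, B9d2, was called lower and 0 higher, near the 14.5% and 12.9% of the 372. Of the 29 without a match 3 were called lower and 7 higher there, beside 11.9% and 17.6% of all genes without one. B9d1, the most negative of all, had no match in its window.

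In the posterior palate 7 ciliary genes were called higher, 4 lower and 32 not at all, against 17.3% and 11.7% of all genes and 29.0% in both directions. All 11 called genes had been called in the same direction anteriorly. The share of all genes called posteriorly for which this held is not given here, and 49.7% of all genes were called anteriorly. The agreement is therefore not read as particular to ciliary genes. Tctn2, called lower anteriorly, was at 25.3 CPM in posterior controls and 25.4 CPM under tamoxifen. The posterior libraries are separate from the anterior ones, but the labels do not say whether both portions came from the same embryos. Values did not overlap for 11 ciliary genes that were higher and 8 that were lower, against 26.5% and 21.5% of all genes, 48.0% in all.

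B9d1 measured 23.8, 24.5 and 25.2 CPM in posterior controls and 15.4, 13.9 and 17.7 CPM under tamoxifen, 1.56-fold lower without overlap (-0.65 ± 0.11, edgeR adjusted p = 0.000856). B9d2 measured 16.3, 15.02 and 14.4 CPM against 10.2, 10.02 and 10.9 CPM, 1.47-fold lower (-0.55 ± 0.13, edgeR adjusted p = 0.00548). Of the B9-domain genes only Mks1 overlapped between the posterior groups, and it was not called (-0.18 ± 0.11, adjusted p 0.246). Evc measured 98.4, 93.0 and 94.4 CPM in controls and 75.1, 83.5 and 82.3 CPM under tamoxifen (-0.25 ± 0.07, edgeR adjusted p = 0.0136). Ift20 measured 48.4, 49.9 and 49.1 CPM in controls and 44.2, 42.2 and 40.6 CPM under tamoxifen (-0.21 ± 0.07, edgeR adjusted p = 0.0283).

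Cep290 again rose most, from 8.14, 12.2 and 12 CPM in posterior controls to 16.9, 15.3 and 14.5 CPM under tamoxifen (0.53 ± 0.18, edgeR adjusted p = 0.0338). Rpgrip1l measured 16.5, 21.1 and 20.4 CPM in controls and 26.9, 25.3 and 26.2 CPM under tamoxifen (0.43 ± 0.12, edgeR adjusted p = 0.0141). Arl13b measured 20.2, 24.9 and 22.4 CPM against 29.4, 29.3 and 28.2 CPM (0.36 ± 0.11, edgeR adjusted p = 0.0233). Treated and control libraries were apart for all 3 genes.

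Dync2h1 measured 23.5, 30.8 and 26.8 CPM in posterior controls and 34.5, 35.3 and 34.7 CPM under tamoxifen (0.36 ± 0.13, edgeR adjusted p = 0.0389). Wdr35, the IFT-A subunit, measured 32.9, 38.7 and 33.3 CPM in controls and 41.4, 42.7 and 42.0 CPM under tamoxifen (0.26 ± 0.09, edgeR adjusted p = 0.0364). Cc2d2a, a transition zone protein with a C2 domain, measured 20.8, 23.99 and 21.6 CPM in controls and 28.2, 25.3 and 25.7 CPM under tamoxifen (0.26 ± 0.09, edgeR adjusted p = 0.0423). Kif3b (0.24) completed the 7, and no BBSome gene was called.

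Most posterior calls were lost on leaving out 1 library or another. Without posterior control 1 or without posterior tamoxifen 1, none of the 7 rises was called, and 2 or 3 falls were. Of all genes, 1784 and 1796 were then called higher and 930 and 1249 lower, against 2762 and 1863 in the full fit. Over the 12 omissions of 1 library, Kif3b and Cc2d2a each lost their call in 10, Wdr35 in 8, Dync2h1 in 7, Cep290 in 5, Arl13b in 4 and Rpgrip1l in 2. Of the falls, Ift20 lost its call without posterior control 1, 2 or 3 or posterior tamoxifen 2 or 3, with adjusted p-values of 0.0628 to 0.106. Evc lost its call without posterior control 1 (0.0613) or posterior tamoxifen 1 (0.0501), and B9d1 and B9d2 kept theirs throughout. Across the 43 genes, rho of the posterior log2 fold change was 0.54 with length and -0.54 with GC content, against 0.48 and -0.41 over all genes. Of the 12 ciliary genes of 5 kb or more, 5 were called higher and 0 lower, beside 47.1% and 2.18% of all genes this long. With the length and GC trend removed there were 0 rises and 5 falls, against 7.71% and 10.2% of all genes, 17.9% in all. The falls were B9d1 (-0.44, edgeR adjusted p = 0.00387), Tctn1 (-0.40, 0.0224), Ofd1 (-0.36, 0.0117), Ift46 (-0.28, 0.0191) and Evc (-0.20, 0.0407). B9d2 was at -0.25 with an adjusted p of 0.0828. Hvcn1, which overlaps Tctn1, was called higher (0.38, edgeR adjusted p = 0.0302). B9d1, Tctn1, Ift46 and Ofd1 were thus called lower in both portions of the palate after this removal.

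**Figure D5:**
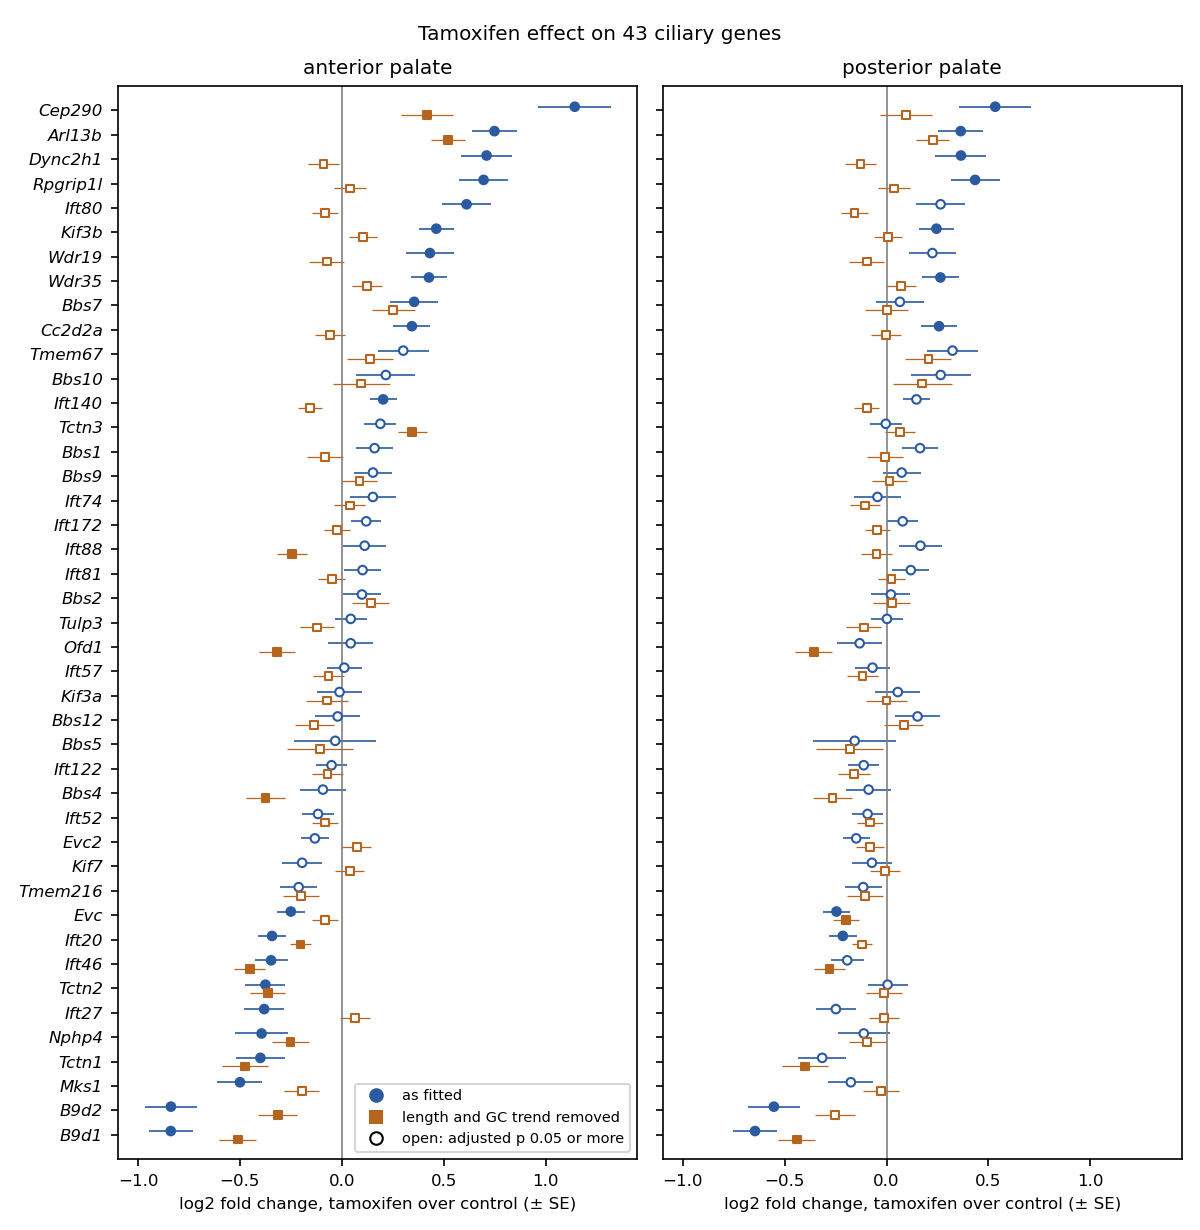
Log2 fold change (± SE) of the 43 ciliary genes under tamoxifen in the anterior (left) and posterior (right) palate, ordered by the anterior value, as fitted (circles) and with the length and GC trend removed (squares); filled symbols have an adjusted p under 0.05. B9d1 is filled in both forms and both panels, while Dync2h1 moves from 0.71 to -0.09 on removal in the anterior panel.

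The difference between the anterior and posterior tamoxifen effects was tested as an interaction. No ciliary gene passed, and edgeR called 0.00% of all genes. At an unadjusted p under 0.05 there were 3 ciliary genes (6.98%) and 13.2% of all genes. They were Cep290, with a rise larger anteriorly by 0.61 ± 0.25 on the log2 scale, Arl13b, larger by 0.39 ± 0.16, and Tctn2, with a difference of -0.38 ± 0.14. Their edgeR adjusted p-values were 0.336, 0.334 and 0.302. limma-voom called no gene, and DESeq2 called 179 genes of which none was ciliary, with 4 ciliary genes at an unadjusted p under 0.05. The 10 ciliary genes called only anteriorly are therefore not shown to differ between the portions.

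The comparison of anterior with posterior palate in controls asked how ciliary levels differ along the shelf. Few did: 3 of 43 were called higher anteriorly and 2 lower, against 10.2% and 13.1% of all genes, 23.3% in all. Values did not overlap for 9 genes that were higher and 4 that were lower, against 20.2% and 21.0% of all genes, 41.2% in all. B9d2 measured 19.7, 17.7 and 25.1 CPM anteriorly and 16.3, 15.02 and 14.4 CPM posteriorly (0.45 ± 0.13, edgeR adjusted p = 0.0151). Tctn2 measured 34.8, 29.5 and 32.6 CPM against 27.3, 23.97 and 24.7 CPM (0.35 ± 0.10, edgeR adjusted p = 0.0162). Ift81, which binds tubulin in the IFT-B core, measured 35.1, 35.4 and 31.5 CPM against 24.4, 28.5 and 28.5 CPM (0.33 ± 0.09, edgeR adjusted p = 0.0154).

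Lower anteriorly were Ift57, at 32.2, 29.7 and 33.2 CPM against 37.1, 41.0 and 40.5 CPM posteriorly (-0.32 ± 0.08, edgeR adjusted p = 0.0121), and Tctn3, at 17.8, 19.4 and 17.6 CPM against 22.1, 22.6 and 22.8 CPM (-0.30 ± 0.08, edgeR adjusted p = 0.0105). None of these 5 overlapped between the portions. The call of B9d2 was lost without anterior control 3 (adjusted p 0.0984), posterior control 2 (0.0556) or posterior control 3 (0.0669). Tctn2 lost its call without anterior control 1 (0.110), posterior control 2 (0.0769) or posterior control 3 (0.0624). For Ift81 this was so without anterior control 1 (0.0744), anterior control 2 (0.0813) or posterior control 1 (0.0753), and for Ift57 without posterior control 2 (0.0557) or posterior control 3 (0.05001).

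Under tamoxifen, only Ift81 was called between the portions. It measured 34.0, 39.8 and 35.9 CPM anteriorly and 30.9, 30.2 and 27.2 CPM posteriorly (0.31 ± 0.09, edgeR adjusted p = 0.0236), beside 7.60% of all genes called higher and 10.2% lower, 17.8% in all. Values did not overlap for 9 genes that were higher anteriorly and 2 that were lower, against 16.3% and 16.8% of all genes, 33.1% in all. It lost its call without anterior tamoxifen 2 (0.0959), posterior tamoxifen 2 (0.0556) or posterior tamoxifen 3 (0.119). With the trend removed, all 5 control calls were kept and Bbs10 (0.42), Dync2h1 (0.27), Ift140 (0.26) and Ift88 (0.25) were added as higher anteriorly, 7 higher and 2 lower against 14.4% and 12.5% of all genes, 26.9% in all. Under tamoxifen there were then 5 higher and 1 lower, against 13.8% and 10.9%, 24.7% in all.

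A further 49 genes of cilia and basal bodies, all tested, were counted beside the 43. Of these 18 were called higher and 10 lower anteriorly, and 9 higher and 3 lower posteriorly, beside 25.6% and 24.0%, and 17.3% and 11.7%, of all genes. Gpr161, a ciliary receptor that restrains Hedgehog signalling, measured 12.3, 12.98 and 9.13 CPM in anterior controls, against 32.1, 28.7 and 28.3 CPM under tamoxifen (1.38 ± 0.11, edgeR adjusted p = 1.10e-06). It kept 0.95 with the trend removed, and rose posteriorly too (0.68 ± 0.11, edgeR adjusted p = 0.000728). The kinase Ttbk2, which starts cilium assembly, rose by 1.18 anteriorly and 0.69 posteriorly. The centriolar protein C2cd3 (0.51) and the calcium channel Pkd2 (0.58) rose anteriorly, and C2cd3 (0.38) and Cep97 (0.46), a suppressor of assembly, posteriorly. With the trend removed, the counts for the 49 were 4 higher and 4 lower anteriorly, and 3 higher and 4 lower posteriorly. All genes then stood at 16.1% and 16.6% anteriorly, and 7.71% and 10.2% posteriorly.

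The RFX factors, which bind the X-box, split. Of 7 tested, 3 were called higher and 1 lower under tamoxifen in each portion. All genes stood at 25.6% and 24.0% anteriorly, and 17.3% and 11.7% posteriorly. Rfx3, an activator of ciliary genes, averaged 13.001 ± 1.65 CPM in anterior controls, against 24.3 ± 3.98 CPM under tamoxifen (0.90 ± 0.13, edgeR adjusted p = 4.54e-05), and 0.13 with the trend removed (adjusted p 0.252). Rfx7 rose by 0.97 anteriorly and 0.61 posteriorly, and Rfx5 by 0.24 in both. With the trend removed, 1 factor was called higher anteriorly (Rfx7, 0.29) and 0 posteriorly, beside 16.1% and 7.71% of all genes. Rfx1 fell from 74.1 ± 4.05 to 48.1 ± 1.96 CPM anteriorly (-0.62 ± 0.10, edgeR adjusted p = 0.000121) and by 0.38 posteriorly. Its fall remained called with the trend removed in both portions (-0.29 and -0.26).

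Hedgehog pathway genes, the signal that uses the cilium, also moved in both directions. Of 21 tested, 5 were called higher and 6 lower anteriorly, and 5 higher and 3 lower posteriorly, beside 25.6% and 24.0%, and 17.3% and 11.7%, of all genes. With the trend removed there were 9 higher and 4 lower anteriorly, and again 5 and 3 posteriorly. All genes then stood at 16.1% and 16.6%, and at 7.71% and 10.2%. Ptch1, receptor and target, measured 175, 160 and 119 CPM in anterior controls, against 283, 279 and 303 CPM under tamoxifen (0.93 ± 0.10, edgeR adjusted p = 4.87e-06), and was not called posteriorly (0.25, adjusted p 0.0773). Gli1, the usual target gene read as pathway output, moved the other way, from 262, 266 and 308 CPM to 155, 159 and 178 CPM (-0.77 ± 0.10, edgeR adjusted p = 2.49e-05). It also fell posteriorly (-0.50 ± 0.10, edgeR adjusted p = 0.00286). The 2 pathway targets thus went in opposite directions anteriorly, with the trend removed as well (0.29 and -0.47).

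Gli3, the main repressor, rose by 0.72 anteriorly and 0.55 posteriorly, and the coreceptor Cdon by 0.75 in both. The kinase Gsk3b rose by 0.87 and 0.56. Shh, Smo, Gli2 and Sufu were not called in either portion, with anterior values of 0.29, -0.04, 0.19 and 0.09. Smo (0.25) and Sufu (0.17) were called higher anteriorly once the trend was removed.

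Motile cilia, built by a few epithelial cell types, share IFT genes with primary cilia, so their markers were examined beside these results. Of 20 markers 14 were tested, with 0 called higher and 3 lower anteriorly and none posteriorly. Of all genes, 25.6% were called higher and 24.0% lower anteriorly, and 17.3% and 11.7% posteriorly. Tekt2 (-0.58), Foxj1, the master regulator of motile cilia (-0.90), and Dnaic1 (-1.60, at under 1 CPM in the mean of each anterior group) were those called. Summed over the list, of which Tekt2 alone gave 36.9 to 53.2 CPM in anterior controls and 28.8 to 30.1 CPM in anterior tamoxifen libraries, the libraries held 70.6 to 81.8 CPM in anterior controls, 51.5 to 58.5 CPM in anterior tamoxifen libraries, 49.4 to 52.6 CPM in posterior controls and 40.8 to 44.1 CPM in posterior tamoxifen libraries. Sntn was at 0 in every library. The part of such cells in the falls of ciliary genes was not tested.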

How the data were processed

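The deposited table held raw counts per gene symbol for 12 total RNA libraries. Per the submitters' processing notes the authors used HISAT2 and StringTie with genome build mm9. The labels do not name the counting program, its annotation or its strand setting. Genes were filtered with filterByExpr, scaled by TMM and fitted over all 12 libraries with edgeR 4.0.16 (robust quasi-likelihood, 8 residual degrees of freedom) in R 4.3.3, with Benjamini-Hochberg adjustment over 15958 genes. The 5 contrasts were tamoxifen against control in each portion, the difference of these effects, and anterior against posterior palate in each treatment. The script was tested on simulated data.

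Lengths, GC content and positions came from GENCODE vM21 (GRCm38), with 15844 tested genes matched by symbol, and promoters from RefSeq. The length and GC trend was fitted in each library with natural splines of 4 degrees of freedom each over genes above 1 log2 CPM and entered as an offset. Alternatives used DESeq2 1.42.0, limma 3.58.1 (voom), other scalings, filters and thresholds, fewer libraries and a replicate block.

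The members and gene lists were chosen with earlier results of these data known. Full values are given for up to 6 called genes per direction and contrast whose groups do not overlap, and for the 4 highest and 4 lowest levels. From each other list up to 4 genes with the smallest adjusted p per contrast were named, besides core Hedgehog genes and Foxj1. The labels do not say that libraries of a group came from separate animals, so p-values measure only the spread between these libraries.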

Additional observations from a re-analysis of the deposited data

How the results depend on the processing

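Removing the length and GC trend changed the results most. In the anterior palate the tamoxifen comparison went from 11 to 3 ciliary genes higher (3 with the replicate block as well), with a median of -0.0744 (-0.0738 with the block). Among genes called before or after the removal, directions turned for Ift27 (0.0629, with the block 0.0648), Ift80 (-0.0828, -0.0827), Ift88 (-0.245, -0.246), Ift140 (-0.156, -0.155), Cc2d2a (-0.0598, -0.0594), Ofd1 (-0.318, -0.316), Dync2h1 (-0.0903, -0.0924) and Wdr19 (-0.0740, -0.0738), with the value under the block given second. In the posterior palate 0 were higher (1 with the block), the median was -0.0496 (-0.05105), and Cc2d2a (-0.0027, with the block -0.0013) and Dync2h1 (-0.128, -0.126) turned. Between portions, 7 were higher in controls (7 with the block), with Dync2h1 at 0.275 (0.277), and under tamoxifen 5 were higher (4) and 1 lower (1).

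At an adjusted p under 0.01, the posterior tamoxifen comparison gave 0 higher and 2 lower, beside 1514 and 701 of all 15958 genes. Between portions the controls gave 0 and 0, beside 873 and 1321 of all genes, and the tamoxifen libraries 0 higher, beside 723. With only the 6 posterior libraries fitted, 7 were lower, beside 2612 of all 15485 genes. DESeq2 gave 1 lower between the portions under tamoxifen, beside 1859 of all 15958 genes. Another scaling, another filter and limma-voom left every count of ciliary genes within 1.5 times its reported value. None of them turned the direction of a ciliary gene called in either fit. Signs of genes called in neither fit were not compared. The replicate block without the trend gave 11 higher and 10 lower anteriorly, beside 4033 and 3767 of all genes. Posteriorly it gave 6 and 5, beside 2721 and 1840 of all genes. Same-numbered libraries of different groups correlated at -0.058 to 0.147, over 0.1 in 2 of 18 pairs, so the numbers were not taken as pairs. Of the 12 libraries, 7 had their highest correlation with one of their own number, and 0 did so within each of the other groups. The numbers are those of the labels, and some of the deposited column headers carry others, so the block tests the labels' numbering alone.

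Leaving out 1 library at a time gave anterior medians of 0.00268 to 0.111. Posteriorly it gave 0 to 7 higher, 2 to 8 lower and medians of -0.0195 to 0.0229. The rises numbered 0 without posterior control 1 or posterior tamoxifen 1, 2 without posterior control 3, posterior tamoxifen 2 or anterior control 2, 3 without posterior tamoxifen 3 or anterior tamoxifen 1, and 4 without anterior control 1 or anterior tamoxifen 3. The falls numbered 2 without posterior control 1, 6 without anterior control 1, 7 without anterior control 3 and 8 without anterior tamoxifen 2. Of all genes, 1784 to 2960 were called higher posteriorly over these omissions and 930 to 2675 lower. Between portions, controls gave 1 to 3 ciliary genes higher, 1 to 3 lower and medians of -0.0289 to 0.0559. The higher count was 1 without anterior control 1, posterior control 2 or posterior control 3. The lower count was 1 without posterior control 2 or 3, and 3 without anterior control 1 or anterior tamoxifen 2. Of all genes, 1010 to 1655 were called higher and 1473 to 2687 lower. Under tamoxifen there were 0 to 1 ciliary genes higher, 0 to 1 lower and medians of -0.00239 to 0.0749. There were 0 higher without anterior tamoxifen 2, posterior tamoxifen 2 or posterior tamoxifen 3, and 1 lower without anterior tamoxifen 2 or posterior tamoxifen 1. Of all genes, 828 to 1328 were called higher and 1262 to 1761 lower. The median difference of the effects over the ciliary genes was 0.0131 to 0.0662. The cause of these changes was not tested. With 3 libraries a group, small changes of single genes are the least certain.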
